A study of Homo sapiens with 6 samples.

Results

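The ATF4 and unfolded protein response genes examined here were the 36 rows of the deposited table, among 26025 genes in all, whose gene name was on a list of ATF4 and integrated stress response genes and of endoplasmic reticulum (ER) chaperone and degradation genes. The rows were picked by gene name alone, though the list was chosen with earlier results of these data known. RNA was sequenced from NCI-H1299, a human cell line established from non-small cell lung cancer, in 3 control (Ctrl) and 3 norepinephrine (NE) libraries. NE is a catecholamine that signals through adrenergic receptors. The cells of all libraries were first kept in DMEM for 8 to 12 h and then for 48 h in RPMI-1640 with 2% serum, the NE cells with 10 µM NE and the Ctrl cells with vehicle, which the sample records name both as DMSO and as PBS. The methods of the study call the first step starvation and give the upper end of that range as its length. The members were split into an ATF4 arm of 16 genes and an ER arm of 20 genes, and the question was whether either arm differed between NE-treated and Ctrl cells.

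When unfolded proteins build up in the ER, 3 membrane sensors respond. The kinase PERK, encoded by EIF2AK3, phosphorylates the initiation factor eIF2, which lowers general translation while the mRNA of the transcription factor ATF4 is translated more. ATF4 drives genes of amino acid synthesis, transport and tRNA charging, together with DDIT3, and kinases that sense lack of amino acids, heme or the presence of double-stranded RNA feed into the same step. The sensors IRE1, encoded by ERN1, and ATF6 raise ER chaperones, oxidoreductases and the machinery of ER-associated degradation (ERAD), IRE1 by splicing the XBP1 mRNA and ATF6 by releasing a transcription factor. Tumor cells use both arms under nutrient shortage and high secretory load. The table counts reads per gene, so splicing of XBP1, phosphorylation of eIF2 and ATF4 protein were not measured here.

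The ER arm is the one whose promoters are best known for a shared sequence, the ER stress element, bound by ATF6 or spliced XBP1 together with NF-Y. The stretches below are shown because they carry it or, for PPP1R15A, a site of CREB-type factors. They were read from the RefSeq promoter table of GRCh38.p14, in windows from 250 bases before to 50 bases after each listed start, on the strand of the gene, and capitals mark the motif. The ER stress element was searched as CCAAT, 9 bases of any kind and CCACG, and ER stress element II as ATTGG, any base and CCACG, both on either strand. The stretches of XBP1, PDIA6, SDF2L1, HERPUD1 and PPP1R15A follow the rule for genes shown in every library, and those of HSPA5, HSP90B1 and HYOU1 were added after their values were seen.
HSPA5, chr9:125241386-125241414, minus strand: cttcaCCAATCGGCGGCCTCCACGacggg
HSP90B1, chr12:103930211-103930239, plus strand: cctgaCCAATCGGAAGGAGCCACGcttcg
HSP90B1, chr12:103930316-103930344, plus strand: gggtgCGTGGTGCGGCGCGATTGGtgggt
XBP1, chr22:28800598-28800626, minus strand: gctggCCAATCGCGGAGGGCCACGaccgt
PDIA6, chr2:10812848-10812876, minus strand: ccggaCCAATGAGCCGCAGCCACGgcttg
SDF2L1, chr22:21642094-21642144, plus strand: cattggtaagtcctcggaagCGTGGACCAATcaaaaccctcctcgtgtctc
HERPUD1, chr16:56932005-56932055, plus strand: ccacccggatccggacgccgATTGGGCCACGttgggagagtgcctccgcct
HYOU1, chr11:119057254-119057304, minus strand: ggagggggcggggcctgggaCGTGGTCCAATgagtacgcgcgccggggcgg
HYOU1, chr11:119057360-119057410, minus strand: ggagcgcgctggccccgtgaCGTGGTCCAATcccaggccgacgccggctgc
PPP1R15A, chr19:48872358-48872375, plus strand: cttcgTGACGTCAgcacg

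Of the 36 members, 33 had an entry in the promoter table, with 46 windows, and PSPH, PDIA3 and SHMT2 had none. The ER stress element was found for 7 members (CALR, CANX, CRELD2, HSP90B1, HSPA5, PDIA6 and XBP1). It was in 9 of the 46 member windows and in 0.0769% of all 35116 windows. Element II was found for HERPUD1, HYOU1 and SDF2L1, in 3 of the 46 member windows and in 0.0541% of all windows. The second HYOU1 copy overlapped the unfolded protein response element TGACGTGG, which 0.729% of all windows held. The cAMP response element TGACGTCA, bound by CREB and related factors, was found for PPP1R15A alone among the members, and in 1.85% of all windows. The composite ATF4 site, TGATG, any base and AAT, was in the window of 0 of the 33 members and in 0.991% of all windows, which says only that these letters are not there. Each match is a description of sequence and not a measured binding site.

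The values were read counts per gene divided by 1 size factor per library (normalized counts), with between 16852751 and 17979206 reads on genes per library, and differences are given as NE minus Ctrl of log2(normalized count + 1), tested with limma and Benjamini-Hochberg adjustment over 15013 genes, those that averaged at least 10 normalized counts. All 36 members passed this filter. An adjusted p under 0.05 counted as past the threshold, and a log2 fold change of at least 1 in size was a second criterion. The labels name replicates but not separate cultures, so p-values measure the spread between these libraries only. Bulk counts cannot tell fewer cells of a kind from less RNA per cell. The epithelial keratin genes KRT8 and KRT18 and the mesenchymal gene VIM were abundant in all libraries, while EPCAM reached at most 4.84, NKX2-1 3.87, PECAM1 36.6 and COL1A1 27.2 normalized counts, and PTPRC and SFTPC were not listed. KRT8 and KRT18 had log2 fold changes of -1.06 and -1.62. Ctrl replicate 3 stood apart, with 7305 genes at 0 against 4829 and 4833 in the other Ctrl libraries. The differences also followed the GC content of the exons, over all tested genes as well as the members, so values from a fit that removed this trend within each library (GC correction) are given beside the results. Deviations of each library from the gene means correlated with GC content at 0.693, 0.655 and 0.138 (Spearman) in Ctrl replicates 1 to 3. In NE replicates 1 to 3 they correlated at -0.575, -0.563 and -0.568. Values per library are normalized counts throughout, and gene positions are those of GENCODE v44 on hg38.

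Before GC correction, members differed between NE-treated and Ctrl cells in both directions. Falls outnumbered rises in the ATF4 arm, and rises outnumbered falls in the ER arm. In the ATF4 arm, 7 of 16 genes fell and 4 rose, with a median log2 fold change of -0.38. In the ER arm, 10 of 20 genes rose and 1 fell, with a median of 0.28. Of all 36 members, 14 were higher and 8 lower in NE-treated cells, against a background of 24.6% of all tested genes higher and 25.5% lower by limma. The members' shares were 38.9% and 22.2%, and their median was 0.09 against 0.01 for all tested genes.

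With the fold criterion added, EIF2AK3, DDIT4, DNAJB9, DNAJC3 and SEL1L were higher and PPP1R15A was lower, that is 5 and 1 members (13.9% and 2.78%), where 7.47% and 6.55% of all tested genes were. In 15 members every NE library lay above every Ctrl library, and in 9 every NE library lay below, against 29.7% and 28.9% of all tested genes. After GC correction 8 members were higher and 4 lower, or 22.2% and 11.1%, where 13.0% and 19.0% of 14955 genes were. In that fit the ATF4 arm held 2 higher and 3 lower of 16 genes (12.5% and 18.8%), close to the shares of all genes. The ER arm held 6 higher and 1 lower of 20, a larger share higher and a smaller share lower than among all genes. The median log2 fold change was then -0.13 in the ATF4 arm and 0.13 in the ER arm. Without Ctrl replicate 3 the counts were 16 higher and 15 lower, of which the ATF4 arm held 6 and 10 and the ER arm 10 and 5, while 31.8% and 32.6% of all tested genes were higher and lower in that fit. Without Ctrl replicate 2 they were 10 and 6 (19.6% and 19.7% of all tested genes), without NE replicate 1 they were 13 and 5 (18.1% and 20.9%), and without NE replicate 3 they were 10 and 8 (19.8% and 21.2%).

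**Figure D1:**
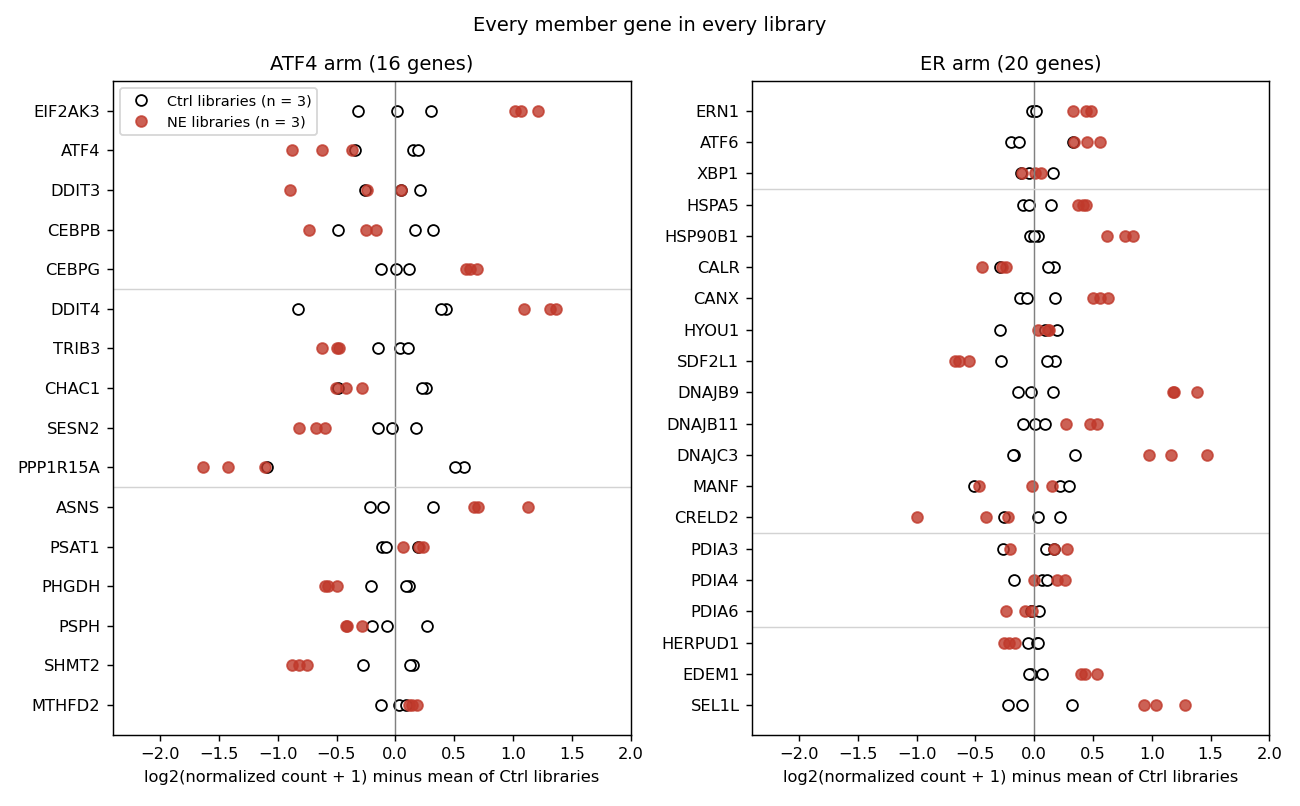
Each row is a member and each point a library, on a log2(normalized count + 1) scale after subtraction of the mean of the 3 Ctrl libraries, with open circles for Ctrl and red circles for NE (n = 3 each) and grey lines between role groups. In 15 rows all red points lie right of the open circles and in 9 rows all lie left, and the open circle of Ctrl replicate 3 lies at the edge of the red points for ATF4 and PPP1R15A and among them for CHAC1.

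The kinase and transcription factors of the ATF4 arm did not share a direction. EIF2AK3 and CEBPG were upregulated, ATF4 was downregulated, and DDIT3 and CEBPB did not pass the threshold. EIF2AK3 lies on chromosome 2 from 88556741 to 88691518 (ENSG00000172071). EIF2AK3 had 148, 186 and 227 normalized counts in Ctrl replicates 1 to 3 and 429, 374 and 386 in NE replicates 1 to 3. All NE libraries were above all Ctrl libraries, with means of 187 ± 39.9 in Ctrl and 396 ± 28.8 in NE-treated cells (SD, n = 3). The log2 fold change was 1.10 (standard error, SE, 0.176, adjusted p = 0.00103 by limma), and after GC correction 0.55 (adjusted p = 0.0121). It was 0.94 without Ctrl replicate 1.

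ATF4, the transcription factor that gives the arm its name and lies on chromosome 22 from 39519695 to 39522683 (ENSG00000128272), was lower in NE-treated cells. ATF4 had 4125, 4265 and 2939 normalized counts in Ctrl replicates 1 to 3 and 2030, 2424 and 2890 in NE replicates 1 to 3. The highest NE library lay just under the lowest Ctrl library, which was Ctrl replicate 3. Means were 3776 ± 729 in Ctrl and 2448 ± 431 in NE-treated cells (SD, n = 3), a log2 fold change of -0.62 (SE 0.173, adjusted p = 0.015 by limma). Leaving out Ctrl replicate 2 gave an adjusted p of 0.0558, leaving out NE replicate 1 gave 0.0686 and quantile normalization, which gives all libraries the same distribution of values, gave 0.057. After GC correction the difference was -0.12 (adjusted p = 0.471). CEBPG, which pairs with ATF4 on DNA, had 2415, 2638 and 2848 in the Ctrl libraries and 3983, 4258 and 4093 in the NE libraries. Its log2 fold change was 0.65 (adjusted p = 0.000936 by limma), or 0.18 after GC correction (adjusted p = 0.128).

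DDIT3, which encodes the stress factor CHOP, had 816, 910.5 and 657 in the Ctrl libraries and 423, 665 and 814 in the NE libraries. The NE libraries spread from the lowest value of all to the level of Ctrl replicate 1, and the log2 fold change was -0.36 (adjusted p = 0.214 by limma). CEBPB, another dimer partner, had 796, 884 and 507 in the Ctrl libraries and 427, 632 and 595 in the NE libraries, with a log2 fold change of -0.38 (adjusted p = 0.184). Without Ctrl replicate 3 both passed the threshold, with adjusted p of 0.045 for DDIT3 and 0.0023 for CEBPB. Of the exon bases of DDIT3, 39.6% are shared with other annotated genes, among them ENSG00000285133 on the same strand and MARS1 on the opposite strand. Of those of CEBPB, 12.6% are shared with CEBPB-AS1 on the opposite strand. The counts of both are uncertain where the counting did not use strand. Those of DDIT3 are also uncertain where reads assigned to both same-strand genes were left out.

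Among the 5 stress effectors downstream of ATF4, DDIT4 was upregulated, TRIB3, SESN2 and PPP1R15A were downregulated, and CHAC1 did not pass the threshold. DDIT4 encodes an inhibitor of the growth kinase complex mTORC1. It lies on chromosome 10 from 72273919 to 72276036 (ENSG00000168209). DDIT4 had 386, 374 and 161 normalized counts in Ctrl replicates 1 to 3 and 612, 739 and 710.0 in NE replicates 1 to 3. Each NE library exceeded each Ctrl library, and Ctrl replicate 3 was the lowest of the 6. Means were 307 ± 127 in Ctrl and 687 ± 66.7 in NE-treated cells (SD, n = 3), with a log2 fold change of 1.26 (SE 0.299, adjusted p = 0.00701 by limma). Without Ctrl replicate 3 the difference was 0.85 (adjusted p = 2.28e-05), below the fold criterion. After GC correction it was 1.79 (adjusted p = 0.000224), one of the few members whose difference grew.

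PPP1R15A encodes the subunit that directs a phosphatase to eIF2 and so ends the response. It lies on chromosome 19 from 48872212 to 48876059 (ENSG00000087074). PPP1R15A had 1392, 1315 and 435 normalized counts in Ctrl replicates 1 to 3 and 297, 345 and 429 in NE replicates 1 to 3. Ctrl replicates 1 and 2 were far above the NE libraries, while Ctrl replicate 3 was just above NE replicate 3. Means were 1047 ± 532 in Ctrl and 357 ± 66.4 in NE-treated cells (SD, n = 3), a log2 fold change of -1.39 (SE 0.387, adjusted p = 0.015 by limma). The difference was -1.94 without Ctrl replicate 3 (adjusted p = 2.03e-07), and without NE replicate 1 it was -1.27 (adjusted p = 0.0727). With eBayes run without a trend the adjusted p was 0.0505. After GC correction it was -0.91 (adjusted p = 0.0408), and with Ctrl replicate 3 left out as well -1.34.

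SESN2, a leucine sensor that holds mTORC1 down, had 937, 815 and 751 in the Ctrl libraries and 469, 521 and 547 in the NE libraries, a log2 fold change of -0.70 (adjusted p = 0.00205 by limma). TRIB3, a pseudokinase that is among the best known ATF4 targets, had 1660, 1888 and 1974 in the Ctrl libraries and 1192, 1318 and 1302 in the NE libraries, a log2 fold change of -0.53 (adjusted p = 0.0036). In neither gene did the groups overlap. After GC correction the differences were -0.14 for SESN2 and 0.03 for TRIB3, and neither passed the threshold. CHAC1, which breaks down glutathione, had 351, 343 and 209 in the Ctrl libraries and 218, 206 and 241 in the NE libraries, so that Ctrl replicate 3 lay within the NE libraries. Its log2 fold change of -0.40 had an adjusted p of 0.136, or 0.000781 without Ctrl replicate 3.

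**Figure D2:**
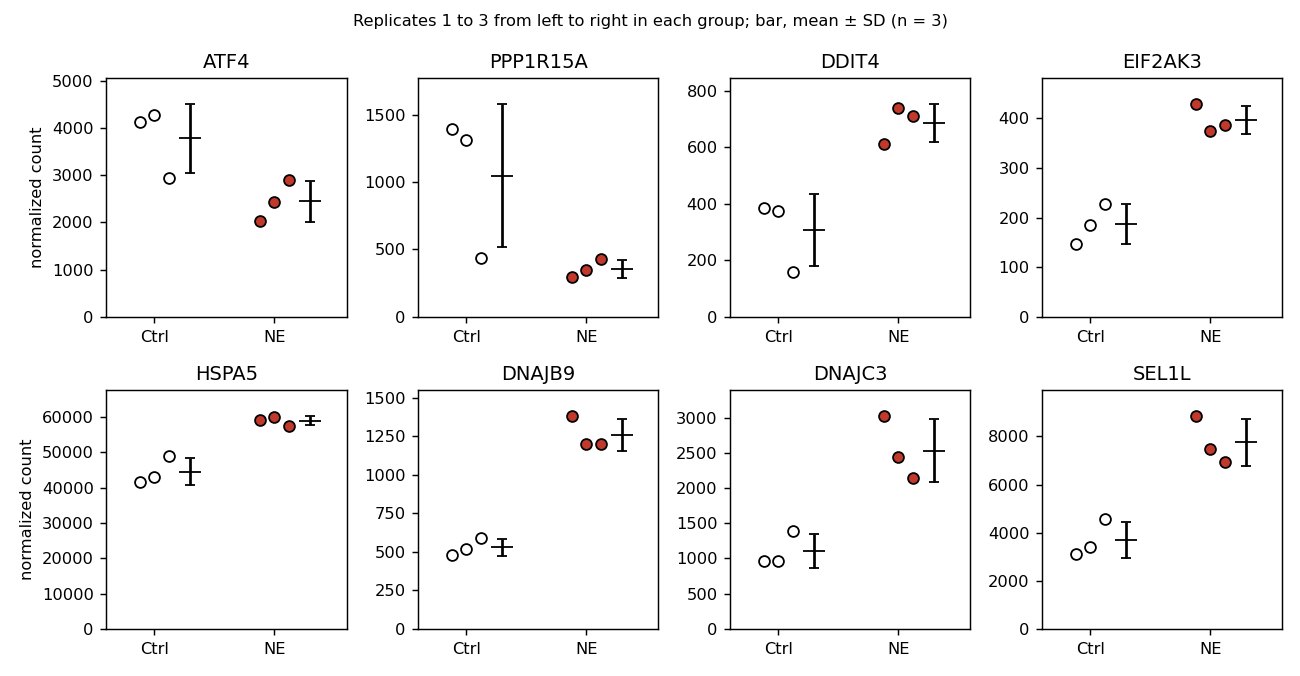
Normalized counts of 8 members in every library, replicates 1 to 3 from left to right, open for Ctrl and red for NE, with the mean ± SD (n = 3) beside each group and every axis starting at 0. EIF2AK3, DDIT4, HSPA5, DNAJB9, DNAJC3 and SEL1L show no overlap with NE higher, whereas in PPP1R15A Ctrl replicate 3, at 435, lies apart from the other Ctrl libraries at 1392 and 1315.

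Of the 6 amino acid and one-carbon synthesis genes, SHMT2, PHGDH and PSPH fell, ASNS rose, and PSAT1 and MTHFD2 did not pass the threshold. SHMT2 encodes the mitochondrial enzyme that turns serine into glycine and a one-carbon unit. SHMT2 had 3585, 3524 and 2676 normalized counts in Ctrl replicates 1 to 3 and 1756, 1837 and 1917 in NE replicates 1 to 3. The groups were well separated, with means of 3262 ± 508 in Ctrl and 1837 ± 80.6 in NE-treated cells (SD, n = 3) and a log2 fold change of -0.82 (SE 0.129, adjusted p = 0.000999 by limma). PHGDH, the first enzyme of serine synthesis, had 1123, 1106 and 902 in the Ctrl libraries and 685, 738 and 700.0 in the NE libraries, a log2 fold change of -0.55 (adjusted p = 0.00498). After GC correction SHMT2 was at -0.34 (adjusted p = 0.0103) and PHGDH at -0.31 (adjusted p = 0.0274), the 2 genes of this group past the threshold in that fit.

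PSPH, the last enzyme of the serine route, had 979, 1070 and 1355 in the Ctrl libraries and 923, 846 and 842 in the NE libraries. Its log2 fold change of -0.37 had an adjusted p of 0.0488 by limma, and this rose above 0.05 in 4 of the 6 fits with 1 library left out, to 0.143 for NE replicate 2, 0.132 for NE replicate 3, 0.0838 for Ctrl replicate 2 and 0.0778 for NE replicate 1. PSAT1, the middle enzyme, overlapped between groups at 2145, 2200 and 2667 in the Ctrl libraries and 2428, 2671 and 2741 in the NE libraries, with a log2 fold change of 0.17 (adjusted p = 0.26). MTHFD2, a mitochondrial folate enzyme, had 2968, 3300 and 3447 in the Ctrl libraries and 3507, 3676 and 3572 in the NE libraries. Its NE libraries all lay above its Ctrl libraries, but the log2 fold change was 0.15 (adjusted p = 0.232, or 0.0244 after quantile normalization), and 14.1% of its exon bases are shared with SLC4A5 on the opposite strand. Without Ctrl replicate 3 the adjusted p was 0.0136 for PSAT1 and 0.0475 for MTHFD2, both positive, and after GC correction both were negative, at -0.25 and -0.21, without passing the threshold.

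ASNS, asparagine synthetase, was the scarcest member by count and is a classical ATF4 target. ASNS had 42.9, 46.7 and 62.7 normalized counts in Ctrl replicates 1 to 3 and 82, 80.4 and 111 in NE replicates 1 to 3. All NE libraries exceeded all Ctrl libraries, with means of 50.8 ± 10.5 in Ctrl and 91 ± 17 in NE-treated cells (SD, n = 3) and a log2 fold change of 0.83 (SE 0.241, adjusted p = 0.0177 by limma). Leaving out 1 library raised the adjusted p to 0.0611 for Ctrl replicate 1, 0.0548 for Ctrl replicate 2 and 0.0775 for NE replicate 3, and GC correction to 0.155. Of its exon bases, 49.3% are shared with a second annotated gene on the same strand (ENSG00000284707), so its level is uncertain where the counting left out reads assigned to both.

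Of the 3 genes of the ER sensing group, ATF6 and ERN1 rose and XBP1 did not pass the threshold. ATF6 had 813, 852 and 1168 normalized counts in Ctrl replicates 1 to 3 and 1375, 1273 and 1181 in NE replicates 1 to 3. NE replicate 3 was only slightly above Ctrl replicate 3, and the log2 fold change was 0.45 (SE 0.151, adjusted p = 0.0328 by limma). The adjusted p ranged from 0.0565 to 0.115 when Ctrl replicate 1, Ctrl replicate 2 or any NE library was left out, and after GC correction the difference was -0.08 (adjusted p = 0.593).

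ERN1, the IRE1 gene, had 445, 439 and 449 in the Ctrl libraries and 604, 559 and 619.5 in the NE libraries, which gave tight groups without overlap. The difference was 0.42 on the log2 scale (adjusted p = 0.013 by limma) and stayed at 0.42 after GC correction (adjusted p = 0.0137), while leaving out Ctrl replicate 2 or NE replicate 3 gave adjusted p of 0.0534 and 0.0535. XBP1, whose promoter stretch with an ER stress element is printed above, had the lowest difference of the group. XBP1 had 1927, 1838 and 2215 normalized counts in Ctrl replicates 1 to 3 and 2000, 2064 and 1849 in NE replicates 1 to 3. The libraries of both groups were interleaved, and the log2 fold change was -0.01 (SE 0.11, adjusted p = 0.932). After quantile normalization it was 0.08 (adjusted p = 0.575).

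The 11 ER chaperones, co-chaperones and secreted stress proteins had 6 genes up and 1 down. With all libraries and before GC correction, DNAJB9 showed the clearest difference of all members, with the lowest adjusted p by limma. It encodes an ER co-chaperone that holds IRE1 in check. It lies on chromosome 7 from 108569867 to 108574850 (ENSG00000128590). DNAJB9 had 479.6, 518 and 589.9 normalized counts in Ctrl replicates 1 to 3 and 1382, 1200 and 1197 in NE replicates 1 to 3. All 3 NE libraries lay far above the Ctrl libraries. Means were 529 ± 55.9 in Ctrl and 1260 ± 106 in NE-treated cells (SD, n = 3), a log2 fold change of 1.25 (SE 0.124, adjusted p = 0.00014 by limma), or 0.57 after GC correction (adjusted p = 0.00173).

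DNAJC3 encodes an ER co-chaperone that also inhibits eIF2 kinases. It lies on chromosome 13 from 95677139 to 95794988 (ENSG00000102580). DNAJC3 had 967, 960.2 and 1387 normalized counts in Ctrl replicates 1 to 3 and 3022, 2434 and 2135 in NE replicates 1 to 3. The NE libraries were all above the Ctrl libraries, in which replicate 3 was the highest. Means of 1104 ± 244 in Ctrl and 2530 ± 451 in NE-treated cells (SD, n = 3) gave a log2 fold change of 1.20 (SE 0.176, adjusted p = 0.000701 by limma). After GC correction it was 0.63 (adjusted p = 0.00359).

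The large chaperones rose less. HSPA5, which encodes BiP, the main Hsp70 of the ER and the usual readout of ER stress, had 41585, 43083 and 49052 in the Ctrl libraries and 59264, 60150 and 57543 in the NE libraries. Its log2 fold change of 0.41 (adjusted p = 0.00939 by limma) corresponds to 1.33-fold. Leaving out Ctrl replicate 1 or 2 gave adjusted p of 0.0575 and 0.0519. HSP90B1, the Hsp90 of the ER, had 16368, 17144 and 16781 in the Ctrl libraries and 25694, 28551 and 29928 in the NE libraries, a log2 fold change of 0.74 (adjusted p = 0.000438). CANX, the membrane lectin chaperone calnexin, had 16595, 17321 and 20428 in the Ctrl libraries and 27912, 26607 and 25545 in the NE libraries, a log2 fold change of 0.56 (adjusted p = 0.00254). After GC correction these 3 genes were at 0.11, 0.20 and 0.21, none past the threshold.

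DNAJB11, a further co-chaperone of BiP, had 1074, 1140 and 999.5 in the Ctrl libraries and 1292, 1549 and 1488 in the NE libraries. The log2 fold change was 0.43 (adjusted p = 0.0126 by limma, 0.0718 without NE replicate 2 and 0.0512 without NE replicate 3), and -0.16 after GC correction (adjusted p = 0.42). SDF2L1, a partner of the co-chaperones, was the one chaperone gene that fell. SDF2L1 had 1746, 1670 and 1271 normalized counts in Ctrl replicates 1 to 3 and 972, 992 and 1053 in NE replicates 1 to 3. The NE libraries were tightly grouped below all Ctrl libraries, with means of 1562 ± 255 in Ctrl and 1006 ± 41.9 in NE-treated cells (SD, n = 3) and a log2 fold change of -0.62 (SE 0.136, adjusted p = 0.00473). After GC correction the difference was 0.02 (adjusted p = 0.911).

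CALR, the soluble lectin chaperone calreticulin, had 23013, 22190 and 16720 in the Ctrl libraries and 15036, 17283 and 16914 in the NE libraries, where Ctrl replicate 3 lay among the NE libraries. Its log2 fold change was -0.32 (adjusted p = 0.076 by limma, 0.000473 without Ctrl replicate 3), and 0.09 after quantile normalization (adjusted p = 0.543). HYOU1, which exchanges nucleotide on BiP, had 7937, 7382 and 5660 in the Ctrl libraries and 7081, 7508 and 7571 in the NE libraries, with overlapping groups and a log2 fold change of 0.09 (adjusted p = 0.577). HYOU1 was at 0.53 after GC correction (adjusted p = 0.00117) and at 0.38 after quantile normalization (adjusted p = 0.0182). The secreted proteins are MANF, with 1657, 1742 and 994 in the Ctrl libraries and 1028, 1400 and 1575 in the NE libraries, and CRELD2, with 1088, 954 and 780.0 in the Ctrl libraries and 466, 701 and 800.5 in the NE libraries. In both the groups overlapped. They had log2 fold changes of -0.11 (adjusted p = 0.702) and -0.54 (adjusted p = 0.0525). Without Ctrl replicate 3 the adjusted p was 0.0343 for MANF and 0.00456 for CRELD2, both negative. CRELD2 also passed the threshold without NE replicate 3, with a pseudocount of 10, with a mean of at least 50 and by DESeq2.

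None of the 3 protein disulfide isomerases passed the threshold by limma. PDIA4 had 9082, 9386 and 7727 in the Ctrl libraries and 8670, 9972 and 10434 in the NE libraries, and the groups overlapped. The difference was 0.15 on the log2 scale (SE 0.116, adjusted p = 0.3), and 0.48 after GC correction (adjusted p = 0.00293). PDIA6 had 5177, 5211 and 5426 in the Ctrl libraries and 4473, 5001 and 5207 in the NE libraries, a log2 fold change of -0.11 (SE 0.0975, adjusted p = 0.371), and 25.2% of its exon bases are shared with ATP6V1C2 on the opposite strand. PDIA3, which works with the lectin chaperones, had 8500, 8914 and 6582 in the Ctrl libraries and 6856, 8896 and 9597 in the NE libraries and a log2 fold change of 0.08 (adjusted p = 0.704). The count of 0 was also that at an unadjusted p under 0.05, and that of edgeR and DESeq2. After quantile normalization PDIA4 was past the threshold at 0.47 (adjusted p = 0.00448), and PDIA6 turned to 0.11 (adjusted p = 0.431).

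In the ERAD group SEL1L and EDEM1 rose and HERPUD1 did not pass the threshold. SEL1L encodes the adaptor of the HRD1 ubiquitin ligase. It lies on chromosome 14 from 81471547 to 81533853 (ENSG00000071537). SEL1L had 3120, 3394 and 4560 normalized counts in Ctrl replicates 1 to 3 and 8850, 7476 and 6941 in NE replicates 1 to 3. No NE library came near the highest Ctrl library, replicate 3, and means were 3691 ± 765 in Ctrl and 7756 ± 985 in NE-treated cells (SD, n = 3). The log2 fold change was 1.08 (SE 0.155, adjusted p = 0.000634 by limma), 0.97 without Ctrl replicate 1, 0.98 without NE replicate 1, and 0.46 after GC correction (adjusted p = 0.00565). EDEM1, which hands misfolded glycoproteins to degradation, had 435, 429 and 464 in the Ctrl libraries and 597, 582 and 641 in the NE libraries, a log2 fold change of 0.45 (adjusted p = 0.00932), or 0.22 after GC correction (adjusted p = 0.126).

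HERPUD1, a membrane scaffold of ERAD that is itself induced by ER stress, was lower in every NE library. HERPUD1 had 3328, 3517 and 3544 normalized counts in Ctrl replicates 1 to 3 and 2893, 2987 and 3091 in NE replicates 1 to 3. All NE libraries were below all Ctrl libraries, yet the log2 fold change was -0.21 (SE 0.0919, adjusted p = 0.0819 by limma, 0.043 without Ctrl replicate 3). After GC correction it was -0.63 (adjusted p = 0.00052), the largest fall of the ER arm in that fit.

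**Figure D3:**
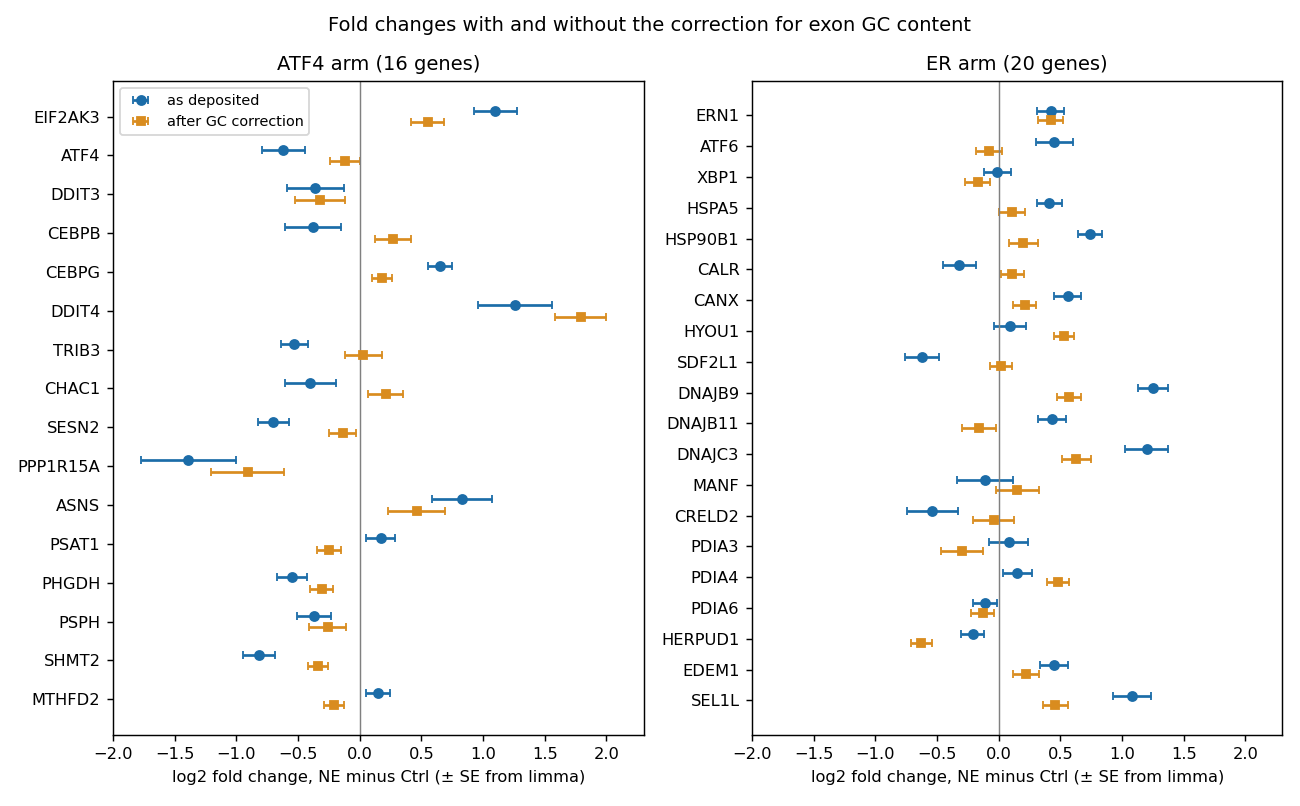
Log2 fold changes (NE minus Ctrl) of all 36 members with SEs from limma (n = 3 per group), before and after GC correction, by role group. DDIT4 moves from 1.26 to 1.79 and HERPUD1 from -0.21 to -0.63, while most rises of the ER arm shrink, such as SEL1L from 1.08 to 0.46.

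On a scale per length, the recomputed FPKM over merged exons, the members spanned a wide range in Ctrl cells. CALR and HSPA5 were highest, at 408 and 379, followed by PDIA4 at 147, SDF2L1 at 81.7 and ATF4 at 80.1. EIF2AK3, ASNS and ERN1 were lowest, at 0.503, 0.577 and 1.29. In NE-treated cells HSPA5, at 552, was above CALR, at 358, and ATF4 was at 57.5 while CEBPG was at 61.9. These are group means, and no difference between neighboring genes was tested. Merged exons cover all annotated transcripts, with 20691 bases for EIF2AK3, 19153 for ERN1 and 1059 for SDF2L1. The order therefore depends on annotated length as well as on reads.

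GC content went with the direction of the differences. Across the 36 members the log2 fold change had a Spearman correlation of -0.744 with exon GC content, and of -0.644 across 14955 tested genes. Both are given as descriptions, since all genes share the same 6 libraries. Of the 15 members with under 45% GC, 11 were higher and 0 lower by limma, edgeR and DESeq2 alike (1 was lower at an unadjusted p under 0.05 by limma and edgeR) with a median of 0.56, while among all tested genes in this range 2988 of 5969 were higher and 228 lower, with a median of 0.53. Of the 12 members with at least 55% GC, 1 was higher (DDIT4) and 6 lower with a median of -0.54, while all tested genes in this range had 89 higher and 2185 lower of 3986, with a median of -0.63. The 9 members between had 2 higher and 2 lower and a median of -0.11, beside -0.15 for all tested genes there. The ATF4 arm had a median GC content of 54.3% and the ER arm of 44.6%, so arm and GC content cannot be told apart by the counts alone.

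**Figure D4:**
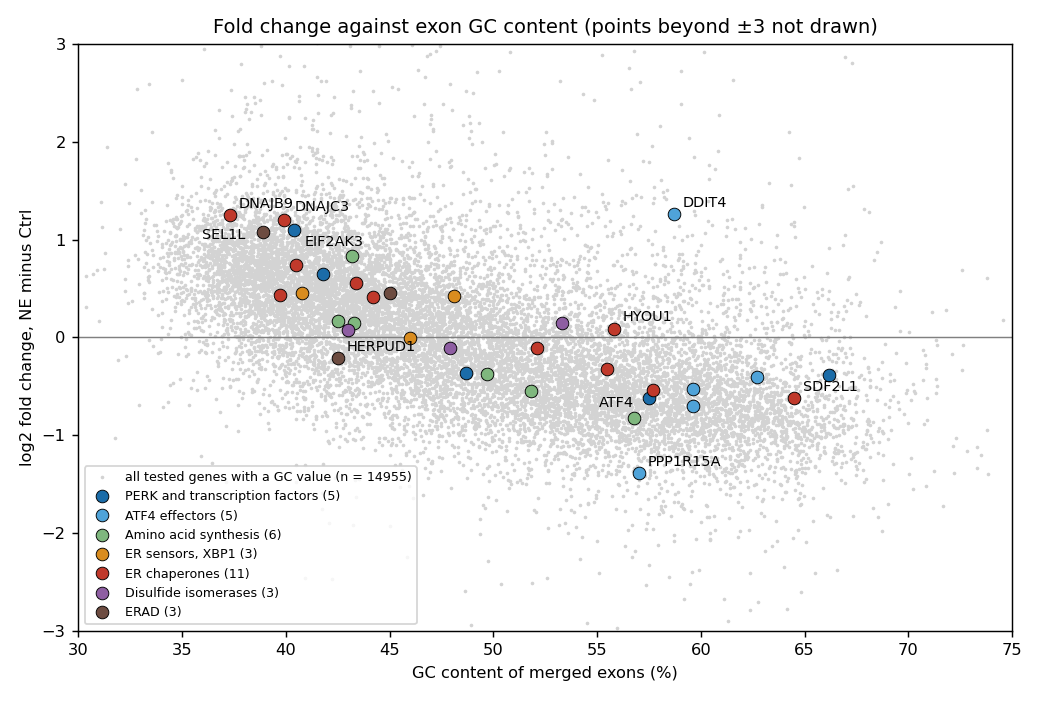
Log2 fold change (NE minus Ctrl) against GC content of the merged exons for 14955 tested genes (grey) and the 36 members (colored by role group). The members follow the downward slope of the grey cloud, with DDIT4 at 1.26 and 58.7% GC well above it.

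After GC correction the genes past the threshold were EIF2AK3, DDIT4, ERN1, HYOU1, DNAJB9, DNAJC3, PDIA4 and SEL1L upward and PPP1R15A, PHGDH, SHMT2 and HERPUD1 downward. EIF2AK3, DDIT4, ERN1, DNAJB9, DNAJC3 and SEL1L were thus higher and PPP1R15A, PHGDH and SHMT2 lower in both fits. HYOU1, PDIA4 and HERPUD1 were past it after correction and not before. In these 2 fits, ATF4, CEBPG, TRIB3, SESN2, ASNS, PSPH, ATF6, HSPA5, HSP90B1, CANX, SDF2L1, DNAJB11 and EDEM1 were past it before correction and not after.

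The ER arm was also split by whether the promoter window held either element. The 10 ER arm genes with either element had 3 higher (HSPA5, HSP90B1 and CANX) and 1 lower (SDF2L1), with a median log2 fold change of -0.06 and a median GC content of 47.0%. The 9 genes with neither had 7 higher and 0 lower by limma, edgeR and DESeq2, also at an unadjusted p under 0.05, with a median of 0.45 and a median GC content of 40.8%. After GC correction the medians were 0.06 and 0.42, with 1 higher and 1 lower of the 10 and 5 higher and 0 lower of the 9. Of all tested genes, 24.6% were higher and 25.5% lower before correction, and 13.0% and 19.0% after. Neither means no exact match in the window, and looser or more distant elements were not searched. The classes were set after the motifs were found, and the difference between them was not tested.

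Around the members, 120 further genes of the pathway were tested from 9 lists, and 33 were higher and 43 lower by limma (27.5% and 35.8%, beside the background of 24.6% and 25.5%), with a median log2 fold change of -0.12. After GC correction 13 were higher and 42 lower. Leaving out Ctrl replicate 3 gave 45 and 54, where 31.8% and 32.6% of all tested genes were called, with 5 higher and 4 lower in the eIF2 list, 9 and 7 in the ER folding list, 6 and 8 in the ERAD list and 4 and 5 in the list of transducers. In the list of eIF2 kinases, eIF2 and eIF2B subunits, 2 of 12 were higher and 4 lower, and after GC correction 0 were higher by limma, also at an unadjusted p under 0.05, and 7 lower (58.3%, against 19.0% of all genes). The kinase EIF2AK2 (PKR), which senses double-stranded RNA, was at 0.77 (adjusted p = 0.00348), or 0.17 after GC correction (adjusted p = 0.243). EIF2B2, EIF2B3, EIF2B4 and EIF2B5, subunits of the exchange factor that recharges eIF2, were the 4 that fell, at -0.80, -0.52, -0.42 and -0.87, and all 4 were also lower after GC correction, at -1.01, -0.59, -0.29 and -0.76. EIF2B1 and the eIF2 subunits EIF2S1 and EIF2S3 were lower after GC correction and not before, at -0.46, -0.84 and -0.32, against -0.21, -0.16 and 0.22. The adjusted p of EIF2B5 was 0.000324 by limma.

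Of 16 further ATF4 targets tested, 5 were higher and 6 lower (31.2% and 37.5%, beside 24.6% and 25.5% of all tested genes). Their median was -0.17, and after GC correction 3 were higher and 4 lower (18.8% and 25.0%, beside 13.0% and 19.0%). CTH, which makes cysteine, rose from a mean of 112 ± 31.3 to 397 ± 54.5 normalized counts (SD, n = 3), a log2 fold change of 1.85 (adjusted p = 0.000264 by limma). EIF4EBP1, a translation repressor, and PYCR1, a proline synthesis enzyme, were at -1.36 and -1.01 (adjusted p = 0.00451 and 0.00297). The 8 amino acid transporters had 2 higher and 3 lower (25.0% and 37.5%), and 1 and 2 after GC correction (12.5% and 25.0%). SLC38A2, a carrier of small neutral amino acids, rose from 9279 ± 2364 to 30764 ± 1633 normalized counts (SD, n = 3) (log2 fold change 1.76, adjusted p = 0.000102), and SLC7A5, the large neutral amino acid exchanger, fell from 5297 ± 211 to 2577 ± 273 normalized counts (SD, n = 3) (-1.04, adjusted p = 0.000159). After GC correction CTH was at 1.48, SLC38A2 at 1.08, EIF4EBP1 at -0.76, SLC7A5 at -0.45 and PYCR1 at -0.38, all past the threshold.

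Cytosolic aminoacyl-tRNA synthetases, many of them ATF4 targets, were more often lower than higher. Of the 13 counted as ATF4 targets 4 were higher and 6 lower (30.8% and 46.2%), and of the remaining 7, 1 was higher and 5 lower (14.3% and 71.4%). Of all tested genes, 24.6% were higher and 25.5% lower. The largest rise in the former was EPRS1 at 0.68 (adjusted p = 0.00118 by limma), and the largest fall was VARS1 at -1.06 (adjusted p = 0.000228). In the latter RARS1 was at 0.47 and FARSA at -0.97 (adjusted p = 0.00305 and 0.00556). GC correction ended the calls of EPRS1, at 0.21 (adjusted p = 0.0785), and RARS1, at -0.09 (adjusted p = 0.532), and left VARS1 at -0.46 and FARSA at -0.38, both past the threshold. After it 8 of 13 and 5 of 7 were lower by limma, where 19.0% of all genes were. In that fit 0 were higher in either list, and 1 was at an unadjusted p under 0.05. Without Ctrl replicate 3 as well, 1 was higher.

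Further ER folding genes were more often higher than lower, with 9 of 17 higher and 4 lower and a median of 0.39. These were 52.9% and 23.5%, beside 24.6% and 25.5% of all tested genes. DNAJC1, an ER-membrane co-chaperone, rose from 409 ± 11.5 to 1079 ± 103 normalized counts (SD, n = 3), a log2 fold change of 1.39 (adjusted p = 7.6e-05 by limma), and was at 1.46 after GC correction. ERO1B, an ER oxidase, was at 1.25 (adjusted p = 0.000688), and SIL1, a BiP exchange factor, at -0.65 (adjusted p = 0.00363). After GC correction SIL1 was at -0.31 (adjusted p = 0.0905) and ERO1B at 0.59 (adjusted p = 0.0075). In that fit 4 of the 17 were higher (23.5%, beside 13.0% of all genes). The 1 that was lower (5.88%, beside 19.0%) was ERP44, at -0.27 (adjusted p = 0.0359) and at 0.39 before. In the further ERAD genes 2 of 19 were higher and 6 lower (10.5% and 31.6%). EDEM3, a mannosidase, was at 1.48 (adjusted p = 0.000114) and AUP1 at -0.75 (adjusted p = 0.00176). After GC correction 2 were higher and 4 lower, with EDEM3 at 0.74 and AUP1 at -0.29. These counts were 10.5% and 21.1%, close to the 13.0% and 19.0% of all genes.

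ER translocation and signal peptide genes were evenly split before GC correction, with 6 of 18 higher and 6 lower. That was 33.3% each way, beside 24.6% and 25.5% of all tested genes. SEC62 was at 1.16 (adjusted p = 0.000284 by limma) and SSR4 at -0.87 (adjusted p = 0.000975), or 0.47 and -0.27 after GC correction. In that fit 2 of the 18 were higher and 10 lower (11.1% and 55.6%, beside 13.0% and 19.0% of all genes). Of 10 further ER stress transducers, site proteases and NF-Y subunits tested, 2 were higher and 3 lower (1 and 1 after GC correction). CREB3L2, an ER-bound transcription factor of the same build as ATF6, on chromosome 7 from 137874979 to 138002086 (ENSG00000182158), had the largest rise of any list. CREB3L2 had 784, 822 and 804 normalized counts in Ctrl replicates 1 to 3 and 4461, 3870 and 3809 in NE replicates 1 to 3. The NE libraries lay far above the tightly grouped Ctrl libraries, with a log2 fold change of 2.33 (SE 0.104, adjusted p = 3.2e-06), and 2.32 after GC correction. Its relative CREB3 was at -0.75 (adjusted p = 0.000561), or -0.35 after GC correction (adjusted p = 0.0463).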

How the data were processed

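NCI-H1299 RNA was sequenced in 3 Ctrl and 3 NE libraries, prepared with an NEBNext Ultra kit. Per the submitters' processing notes and the methods, the authors aligned reads to hg38 with HISAT2 2.0.5 and counted them per gene with featureCounts 1.5.0-p3, with no statement on strand. The deposited table is described as FPKM, but its signal holds counts of reads per gene that had been divided by a size factor, 1 for each library. Here 1 read was worth 0.9138 to 1.047, and 100% of values were whole reads within 0.01 read. The table columns carry a group letter and a replicate number and were matched to the libraries by these. The table held 0 other per-sample columns.

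The members, role groups and pathway lists were chosen with earlier results of these data known. Members were found by gene name, and all 36 were listed and tested. limma 3.58.1 (R 4.3.3, lmFit and eBayes with trend) was run on log2(value + 1) over genes with a mean of at least 10, all 6 libraries, no covariates, two-sided. The step was tested on simulated counts with a common dispersion for all genes and libraries. They held no outlying library such as Ctrl replicate 3, so that case was not tested. Thresholds were those of the study's methods. Alternatives were pseudocounts of 0.1 and 10, no filter, a mean of at least 50, quantile normalization, TMM scaling, eBayes without trend, a replicate block, each library left out, the count models of DESeq2 1.42.0 and edgeR 4.0.16 on recovered reads, and GC correction (removal, library by library, of a natural spline of 5 degrees of freedom in the GC content of GENCODE v44 merged exons). GC correction without Ctrl replicate 3 was added after seeing the data. No pair of replicates was within sampling noise, with a chi-square per degree of freedom of 2.88 for Ctrl replicates 1 and 2. Ctrl replicate 3 gave 50 and 45.8 against these, and the NE pairs gave 5.32 to 23.9. Without molecular identifiers counting error understates the true error. With 3 libraries per group an exact permutation test cannot go below 0.1.

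Values are given in every library for members past both criteria and for the largest rise and fall of each role group, and further members are given because the list is short. From the pathway lists, genes past both criteria and the largest rise and fall past the adjusted p were named, and the eIF2 and eIF2B subunits and ERP44 were named after their values were seen. FGF21 and CREB3L3 were under the minimum mean, and ERN2 was not listed. FPKM was recomputed from recovered reads and merged exon length. Promoter sequences are from RefSeq, GRCh38.p14. Protein sequences were not used here.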

Additional observations from a re-analysis of the deposited data

How the results depend on the processing

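edgeR and TMM scaling kept the direction and side of the threshold of all 36 members, and DESeq2, pseudocount 0.1, pseudocount 10 and a mean of at least 50 of 35. Quantile normalization gave medians of 0.31 for the members and 0.42 for the ER arm, and turned XBP1 to 0.08, CALR to 0.09 and PDIA6 to 0.11, while the median of all genes was -0.01. Without a filter the median of all genes was 0.12. Without the eBayes trend, 0 members passed both criteria downward, against 1 (PPP1R15A). Single calls were lost for PSPH (pseudocount 0.1, no filter, no trend), HSPA5 (no filter), ATF4 (quantile normalization), and PPP1R15A and ATF6 (no trend).

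After GC correction 8 members were higher (1 with the fold criterion) and 4 lower (0 with it), with medians of -0.13 in the ATF4 arm and 0.13 in the ER arm. It turned CEBPB to 0.27, TRIB3 to 0.03, CHAC1 to 0.21, PSAT1 to -0.25, MTHFD2 to -0.21, ATF6 to -0.08, CALR to 0.11, SDF2L1 to 0.02, DNAJB11 to -0.16, MANF to 0.15 and PDIA3 to -0.30. With the replicate block added, these values and medians were the same to 2 decimals and 8 members were higher and 2 lower, 1 and 0 with the fold criterion, the calls lost being PPP1R15A (adjusted p = 0.0745 by limma) and PHGDH (adjusted p = 0.0727). Of all genes, 9.46% and 14.4% were then called. GC correction without Ctrl replicate 3 gave 9 higher (1 with the fold criterion), 6 lower and medians of -0.07 and 0.09, and turned CEBPB to 0.20, TRIB3 to 0.21, CHAC1 to 0.12, PSAT1 to -0.21, MTHFD2 to -0.20, CALR to 0.07, SDF2L1 to 0.04, DNAJB11 to -0.30 (adjusted p = 0.0394 by limma) and PDIA3 to -0.48 (adjusted p = 0.0111). Of all genes, 19.1% were higher and 23.3% lower in that fit. The cause of the turns was not tested.

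With 1 library left out, the members higher ranged from 10 to 16 and those lower from 5 to 15, with the fold criterion from 3 to 5 and 0 to 1. Of all tested genes, 18.1% to 31.8% were higher and 19.7% to 32.6% lower in these fits. The medians ranged from 0.01 to 0.14 over the members, from -0.49 to -0.27 in the ATF4 arm and from 0.22 to 0.31 in the ER arm. MANF ranged from -0.37 to 0.06 and HYOU1 from -0.05 to 0.19. MANF turned to 0.03 without Ctrl replicate 2 and above 0 without NE replicate 1, XBP1 to 0.07 without Ctrl replicate 3 and 0.03 without NE replicate 3, HYOU1 below 0 without Ctrl replicate 3, and PDIA3 to -0.06 without Ctrl replicate 3 and -0.02 without NE replicate 3.

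Replicate numbers only name the libraries. Deviations of same-numbered libraries correlated at -0.163, 0.0799 and -0.151. The replicate block alone gave 13 members higher and 7 lower, the calls lost being PSPH and ATF6. Of all tested genes, 21.0% were higher and 22.4% lower with the block. Depth was similar in all libraries, and ASNS, with the fewest reads of the members, carries the most counting error.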

Other observations

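Pseudogene copies can take reads from their parent genes. PDIA3P1 had a mean of 415 normalized counts over the 6 libraries and ASNSP1 of 25.2, while the copies of ATF4, XBP1 and MTHFD2 that were listed had means of at most 2.89.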
